A study of Mus musculus with 36 samples.

Results

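The 10 acute-phase response genes described here were followed across the 8 groups of the study, visceral fat and liver apart. The members were the rows of the gene expression table named Saa1, Saa2, Saa3, Orm1, Orm2, Hp, Lcn2, Cebpd, Bcl3 and Socs3, and all 10 were found among 56748 genes. The libraries were RNA-seq of epididymal visceral white adipose tissue (visWAT) and liver from the same 18 male C57BL/6J mice, 36 libraries in all. WT mice carried floxed Mlkl alleles without Cre. Mlkl Adi-KO mice carried the same floxed alleles with Adipo-Cre, which acts in mature adipocytes, so the liver of these mice and the other cells of their fat keep the gene. Each genotype had 4 mice on a normal chow diet (NCD) and 5 mice on a high-fat diet (HFD), fed for 16 weeks. The comparison of diets asks how the acute-phase genes respond to HFD in each tissue, and the comparison of genotypes asks whether loss of the necroptosis executioner MLKL from adipocytes changes them.

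The acute-phase response is the rapid change in plasma proteins made mainly by hepatocytes during infection, injury or inflammation. Interleukin-6 acts through the receptor subunit gp130 and the transcription factor STAT3, and interleukin-1 and tumour necrosis factor act through NF-kappaB. C/EBP transcription factors cooperate with both at the promoters of the secreted proteins. Serum amyloid A proteins, the acid glycoproteins ORM1 and ORM2, haptoglobin (Hp), which captures free haemoglobin, and lipocalin-2 (Lcn2), which binds bacterial siderophores, are secreted. Cebpd encodes a C/EBP factor, Bcl3 a nuclear partner of the NF-kappaB subunits p50 and p52, and Socs3 a feedback inhibitor of gp130 signalling. In mice Saa1 and Saa2 are known as liver genes and Saa3 as a gene of fat and macrophages.

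Reads on genes numbered 20875463 to 30322171 per library. Levels are given as FPKM, a read measure scaled by the authors to gene length and library size, and the gene length in it joins all annotated exons of a gene. Differences are on the log2(FPKM + 1) scale from limma, with Benjamini-Hochberg adjustment over all genes with a mean of at least 0.5 FPKM in the libraries compared, and a gene was called at an adjusted p under 0.05. The 1 added to each FPKM makes the log2 differences of members at a few FPKM smaller than their fold changes. Tissue and RNA extraction kit cannot be told apart, since fat and liver were extracted with different kits. In bulk tissue, fewer cells of a type and less RNA per cell cannot be told apart. In visWAT, Mlkl was 1.96 to 2.72 FPKM in the 9 Mlkl Adi-KO libraries and 3.91 to 6.28 in 8 of 9 WT libraries, while the library labelled WT NCD mouse 182 held 2.29. Adipoq, the defining adipocyte gene, was 743 to 1995 FPKM in visWAT and at most 2.70 in liver. The summed hepatocyte markers were 43824 to 67949 FPKM in liver.

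Several libraries stood apart. WT NCD mouse 183 held 18.5% of its visWAT reads on seminal vesicle markers, against at most 0.0257% in the other 17 visWAT libraries. In liver, Mlkl Adi-KO HFD mouse 152 had a summed Kupffer cell marker level of 84.4 FPKM, where the other 17 livers had 20.8 to 44.0, and WT NCD mouse 182 had a summed macrophage marker level of 115 FPKM. Albumin transcripts (Alb) were 460 FPKM in the visWAT of Mlkl Adi-KO HFD mouse 156, 53.2 in that of WT HFD mouse 164 and 50.8 in that of Mlkl Adi-KO NCD mouse 199. The part of these cell types in the results was not tested.

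The secreted members with a shared pattern in liver are shown first by the sequence before their start sites. RefSeq promoter windows of GRCm38.p6, from 250 bases before to 50 after the start, were matched for 7 of the 10 members (Saa1, Saa2, Saa3, Orm2, Lcn2, Bcl3 and Socs3) and not for Orm1, Hp and Cebpd. The 3 motifs below were searched on both strands, TTGCNNAA for C/EBP, GGNNTTNCC for NF-kappaB and TTCNNNGAA for STAT factors. Saa1 and Saa2 are shown because they rose together in liver, Lcn2 because it followed them most closely, and Saa3 because it was the serum amyloid gene that rose in fat. Capitals mark motif matches, which do not overlap each other in these windows. Saa1 (chr7:46742931-46743230, minus strand), Saa2 (chr7:46751583-46751882, plus strand), Saa3 (chr7:46715627-46715926, minus strand) and Lcn2 (chr2:32387690-32387989, minus strand) read as follows.
Saa1: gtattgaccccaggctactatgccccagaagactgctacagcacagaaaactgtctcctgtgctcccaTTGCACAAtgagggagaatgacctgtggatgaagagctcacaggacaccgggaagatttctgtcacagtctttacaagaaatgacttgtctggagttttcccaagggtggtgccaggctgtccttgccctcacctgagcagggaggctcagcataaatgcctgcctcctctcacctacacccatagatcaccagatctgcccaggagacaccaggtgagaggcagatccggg
Saa2: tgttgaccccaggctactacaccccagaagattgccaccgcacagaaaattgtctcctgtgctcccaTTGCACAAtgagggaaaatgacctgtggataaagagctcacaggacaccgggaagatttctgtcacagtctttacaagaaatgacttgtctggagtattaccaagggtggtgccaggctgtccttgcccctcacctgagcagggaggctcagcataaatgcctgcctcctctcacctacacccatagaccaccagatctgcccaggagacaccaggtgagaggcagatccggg
Saa3: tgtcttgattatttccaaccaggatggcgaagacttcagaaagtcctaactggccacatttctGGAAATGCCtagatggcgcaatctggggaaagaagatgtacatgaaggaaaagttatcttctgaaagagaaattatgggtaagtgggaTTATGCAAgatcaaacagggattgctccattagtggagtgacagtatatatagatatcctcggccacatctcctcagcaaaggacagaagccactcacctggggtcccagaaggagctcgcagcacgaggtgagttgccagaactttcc
Lcn2: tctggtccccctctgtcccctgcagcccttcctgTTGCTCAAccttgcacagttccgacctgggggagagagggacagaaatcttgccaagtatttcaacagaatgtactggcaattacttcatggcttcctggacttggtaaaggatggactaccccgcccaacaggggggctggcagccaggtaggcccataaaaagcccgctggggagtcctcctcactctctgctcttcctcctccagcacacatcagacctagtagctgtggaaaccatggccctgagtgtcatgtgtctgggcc
The C/EBP letters were found in 5 of the 7 windows (Saa1, Saa2, Saa3, Orm2 and Lcn2), against 10.8% of 32851 windows of the same length. Saa1 and Saa2 held the same match, TTGCACAA, at positions -182 and -183 from the start. The match of Saa3 was TTATGCAA on the opposite strand at position -99, and that of Lcn2 was TTGCTCAA at position -216. The NF-kappaB letters were in the windows of Saa3 and Bcl3, against 16.0% of all windows, and the STAT letters in that of Socs3, against 8.30%. A match of letters is a description and does not show that a factor binds there.

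In the files (GRCm39), Saa1 lies at chr7:46389921-46392404 on the minus strand, Saa2 at chr7:46401214-46403737 on the plus strand and Saa3 at chr7:46361422-46365124 on the minus strand. Orm1 (chr4:63262797-63266400) and Orm2 (chr4:63280686-63284115) are neighbours on the plus strand of chromosome 4. How reads that fit several genes were counted is not given in the sources used here. The longest run of bases that the main transcripts of Saa1 and Saa2 share exactly is 76 bases, and Orm1 and Orm2 share a run of 141 bases. No window of 150 bases, the length of 1 read, is identical between them. Values of these pairs remain uncertain where reads could fit both genes.

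Per length, Hp and Orm1 were the most abundant members in both tissues, at 1703 and 700 FPKM in WT NCD liver and 946 and 209.5 in WT NCD visWAT. The fat value of Orm1 was 120 FPKM without mouse 182. In WT NCD liver Bcl3 followed at 12.5 FPKM, then Saa1 at 6.66 and Orm2 at 6.33, and the other 5 were below 4 FPKM. In WT NCD visWAT Cebpd, at 9.73 FPKM, came after them, and Saa1 and Saa2 were lowest. Gene lengths that join all exons limit such comparisons between genes.

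HFD raised most of the secreted members in the liver of WT mice. Saa1, Saa2, Saa3, Orm2, Hp and Lcn2 were called higher, as was the regulator Cebpd, and Socs3 was called lower. This is 7 higher and 1 lower of 10 members tested, where 13.2% of 13330 genes were called higher and 12.1% lower (25.3% in either direction). The median difference of the 10 members was 0.82 on the log2 scale, against -0.00 over all genes tested. For each of these 8 genes the 5 HFD livers lay on the same side of all 4 NCD livers. These genes were picked by their calls on the same values, so the lack of overlap adds no separate support. The share of all genes without overlap between diets was not counted.

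Saa1 in WT livers was 5.05, 5.45, 12.01 and 4.14 FPKM in NCD mice 165, 180, 182 and 183, and 59.9, 38.8, 69.7, 57.5 and 42.9 FPKM in HFD mice 154, 155, 161, 162 and 164. All 5 HFD values were above all NCD values, and mouse 182 was the highest NCD liver. The mean rose 8.07-fold, from 6.66 ± 3.61 (SD, n = 4) to 53.8 ± 12.7 (SD, n = 5), a log2 difference of 2.91 ± 0.27 (SE) with an adjusted p of 0.000150 (limma). Saa2 went from 1.78, 1.72, 8.95 and 1.64 FPKM on NCD to 25.3, 21.1, 24.7, 28.9 and 23.95 FPKM on HFD, in the same order of mice. The HFD livers lay close together and again above all NCD livers. The log2 difference was 2.77 ± 0.37 (SE, adjusted p = 0.000751, limma). Without mouse 182 the differences were 3.19 for Saa1 and 3.24 for Saa2.

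Lcn2 had the same shape. Its WT NCD livers held 0.415, 0.468, 4.38 and 0.495 FPKM, and its WT HFD livers 11.7, 9.29, 15.6, 14.3 and 9.54. Mouse 182 was the highest NCD liver and still below every HFD liver. The log2 difference was 2.67 ± 0.38 (SE, adjusted p = 0.00123, limma), and 3.14 without mouse 182. Orm2, a minor acid glycoprotein gene beside the abundant Orm1, was 4.44, 6.89, 10.7 and 3.27 FPKM on NCD and 30.4, 21.3, 24.8, 29.3 and 30.2 on HFD. These groups did not overlap, and the log2 difference was 2.04 ± 0.26 (SE, adjusted p = 0.000676, limma). Orm1 did not follow its neighbour. It was 700 ± 152 FPKM (SD, n = 4) on NCD and 703 ± 107 (SD, n = 5) on HFD, a log2 difference of 0.02 with a 95% interval of -0.35 to 0.40.

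Hp and Saa3 rose by less. Hp, among the most abundant of the members per length, was 1751, 1674, 1545 and 1842 FPKM in WT NCD livers and 2730, 2264, 2934, 2822 and 2382 in WT HFD livers. The groups did not overlap, the mean rose 1.54-fold and the log2 difference was 0.62 ± 0.10 (SE, adjusted p = 0.00213, limma). Saa3 in liver was near 1 FPKM, with 1.14, 0.656, 0.852 and 0.649 FPKM on NCD and 2.60, 1.90, 2.16, 2.29 and 2.75 on HFD. These values rest on 30 to 131 reads per library. The mean of Saa3 rose 2.84-fold, and the log2 difference was 0.87 ± 0.11 (SE, adjusted p = 0.000493, limma). With all 4 liver groups in 1 fit the adjusted p of Saa3 was 0.147.

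The 3 regulators moved in different directions in WT liver. Cebpd was 3.82, 3.32, 4.06 and 3.99 FPKM on NCD and 7.91, 5.97, 8.003, 8.08 and 5.98 on HFD, a mean 1.89-fold higher with no overlap (log2 difference 0.76 ± 0.10 SE, adjusted p = 0.000904, limma). Bcl3 was 12.5 ± 3.23 (SD, n = 4) on NCD and 11.9 ± 1.41 (SD, n = 5) on HFD, with overlapping groups and a 95% interval of the log2 difference from -0.40 to 0.31. Socs3 was 3.26, 3.03, 3.76 and 3.43 FPKM on NCD and 2.13, 1.97, 2.61, 2.67 and 1.23 on HFD, so the feedback inhibitor was lower in every HFD liver. Its log2 difference was -0.50 ± 0.14 (SE, adjusted p = 0.0269, limma). This call was lost without any 1 of mice 154, 155, 165, 182 or 183, with adjusted p from 0.0512 to 0.0624, with all 4 groups in 1 fit (0.177) and with no filter on low values (0.0634).

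**Figure D1:**
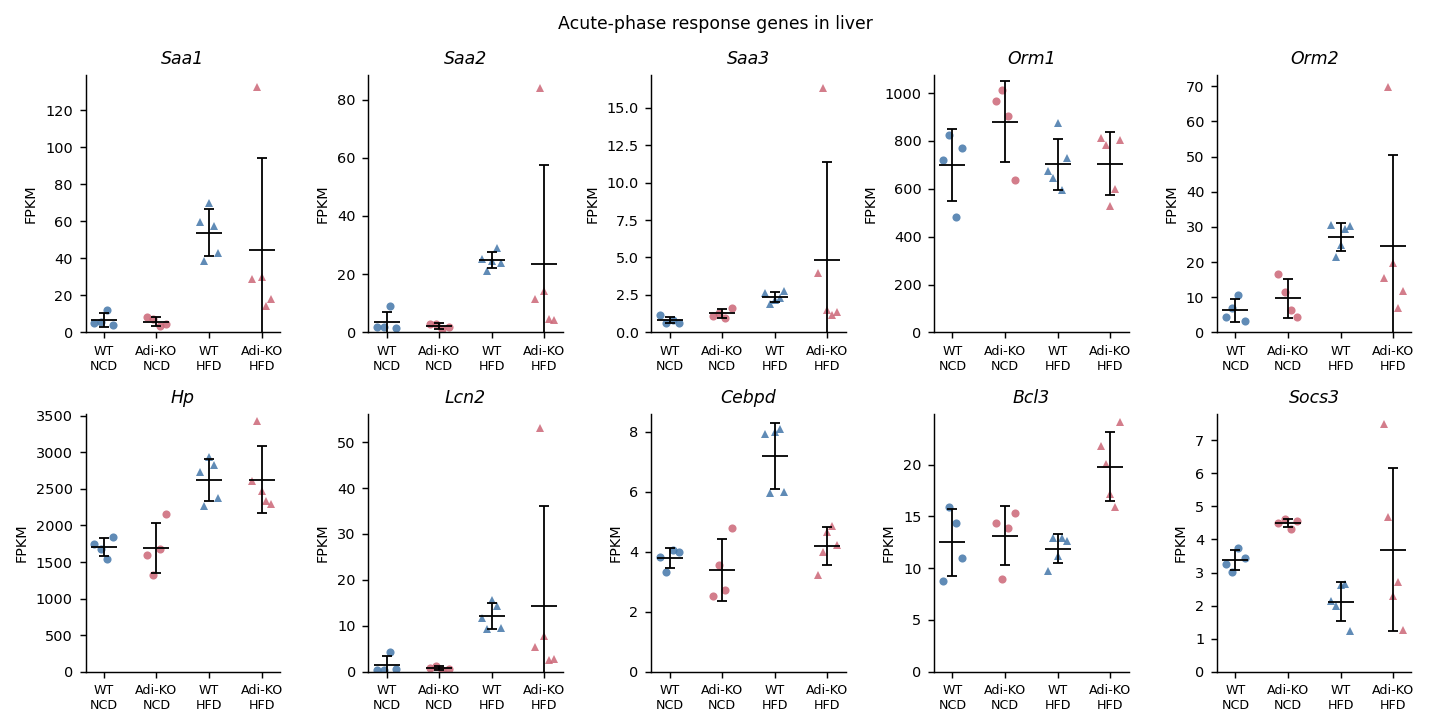
FPKM of the 10 acute-phase response genes in liver, 1 panel per gene, for WT and Mlkl Adi-KO mice on NCD (circles) and HFD (triangles). Each point is 1 mouse, and black lines give the mean and SD of the group, cut off at 0. Mouse 152 is the single high Mlkl Adi-KO HFD point in Saa1 (133 FPKM), Saa2 (83.9), Saa3, Orm2 and Lcn2, and Cebpd and Bcl3 are the panels in which the HFD genotypes do not overlap.

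In the liver of Mlkl Adi-KO mice, 4 of 10 members were called higher on HFD (Saa1, Hp, Lcn2 and Bcl3) and none lower, where 11.9% of 13149 genes were called higher and 10.3% lower (22.2% in either direction). The median difference of the members was 0.75, against 0.00 over all genes tested. Spread between HFD mice was wide. Saa1 was 8.37, 7.19, 3.41 and 4.31 FPKM in NCD mice 166, 179, 197 and 199, and 28.8, 133, 29.9, 14.1 and 18.1 FPKM in HFD mice 151, 152, 153, 156 and 157. All HFD livers were above all NCD livers, with a log2 difference of 2.31 ± 0.56 (SE, adjusted p = 0.0162, limma). Saa2 was 3.02, 2.97, 1.04 and 1.72 FPKM on NCD and 11.4, 83.9, 14.2, 4.52 and 4.15 on HFD. These groups did not overlap either, yet the log2 difference of 2.14 ± 0.72 (SE) had an adjusted p of 0.0603 (limma). Without mouse 152 the difference of Saa2 was 1.48 with an adjusted p of 0.0265.

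Lcn2 in Mlkl Adi-KO livers was 0.862, 1.31, 0.414 and 0.543 FPKM on NCD and 5.48, 53.2, 7.78, 2.47 and 2.82 on HFD. Mouse 152 was the highest and the diets did not overlap, with a log2 difference of 2.26 ± 0.70 (SE, adjusted p = 0.0440, limma). The call was lost without any 1 of mice 151, 153, 166, 179, 197 or 199 (adjusted p 0.0633 to 0.103) or with no filter on low values (0.105), and held without mouse 152 (difference 1.58, adjusted p = 0.00727). Hp rose from 1689 ± 345 (SD, n = 4) to 2626 ± 462 FPKM (SD, n = 5), a log2 difference of 0.64 ± 0.16 (SE, adjusted p = 0.0174, limma), which was lost with no filter on low values (0.0704). Bcl3 rose from 13.1 ± 2.83 to 19.8 ± 3.36 FPKM, a log2 difference of 0.57 ± 0.16 (SE, adjusted p = 0.0327, limma). The Bcl3 call was lost without any 1 of mice 151, 152, 157, 179 or 197 (adjusted p 0.0530 to 0.0665) and with no filter on low values (0.0753). Cebpd, 3.39 ± 1.04 FPKM on NCD and 4.19 ± 0.65 on HFD, gave a 95% interval from -0.08 to 0.60 and was not called. Orm2 and Saa3 overlapped between diets, with log2 differences of 0.98 and 0.85 (adjusted p = 0.263 and 0.302, limma). Without mouse 152 these were 0.50 and 0.33 (adjusted p = 0.411 and 0.386, limma). Orm1 (-0.32, adjusted p = 0.220) and Socs3 (-0.38, adjusted p = 0.431) were not called either (limma).

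Mouse 152 was the highest liver in Saa1, Saa2, Saa3, Orm2, Hp and Lcn2. Its Saa3 was 16.3 FPKM, where the other Mlkl Adi-KO HFD livers held 1.15 to 3.99. Its Orm2 was 69.8 FPKM against 6.97 to 19.6 in those 4 livers. In the same liver the summed macrophage markers were 105 FPKM, against 25.6 to 56.5 in the other livers apart from mouse 182, and the summed neutrophil markers 7.62 FPKM, against 0.419 to 3.04 in the other 17. The neutrophil gene Ly6g was at 0 in all HFD livers, and S100a9 reached 3.89 FPKM. In Cebpd (3.99 FPKM) and Bcl3 (20.1 FPKM) mouse 152 lay inside the range of its group.

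Saa1, Saa2 and Lcn2 varied together among the livers of mice of the same diet, and Orm2 with them on HFD, while on NCD the relation of Orm2 with Saa2 did not pass the test. In the 10 HFD livers Pearson's r with Saa2 on the log2(FPKM + 1) scale was 0.98 for Lcn2, 0.97 for Saa1 and 0.97 for Orm2, and Spearman's rho was 0.95, 0.94 and 0.93. In the 8 NCD livers r was 0.97 for Lcn2, 0.95 for Saa1 and 0.59 for Orm2, and rho was 0.81, 0.93 and 0.67. The permutation p of Pearson's r, adjusted over these 6 relations, was 0.00012, 0.00024 and 0.00012 on HFD (100000 resamples) and 0.00494, 0.000446 and 0.144 on NCD (exact), and that of rho ran from 0.00072 to 0.0831. All pairs of members were also correlated, and these p-values do not account for the choice of Saa1, Lcn2 and Orm2 among them. Without the 2 livers farthest from the median of Saa2, mice 156 and 157 on HFD and 166 and 182 on NCD, r was 0.97, 0.95 and 0.98 on HFD and 0.87, 0.94 and 0.55 on NCD. Mouse 152 was the highest HFD liver in each of these genes, and without it r was 0.97, 0.95 and 0.95 over 9 livers. The HFD livers hold both genotypes, so the genotype means were also removed, which gave r of 0.98 for Lcn2, 0.96 for Saa1 and 0.97 for Orm2, and 0.91, 0.81 and 0.83 without mouse 152 as well. For the members outside these relations, r with Saa2 ran from -0.36 (Bcl3) to 0.78 (Hp) in HFD livers. In NCD livers it ran from -0.56 (Orm1) to 0.17 (Cebpd), with -0.46 for Hp.

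**Figure D2:**
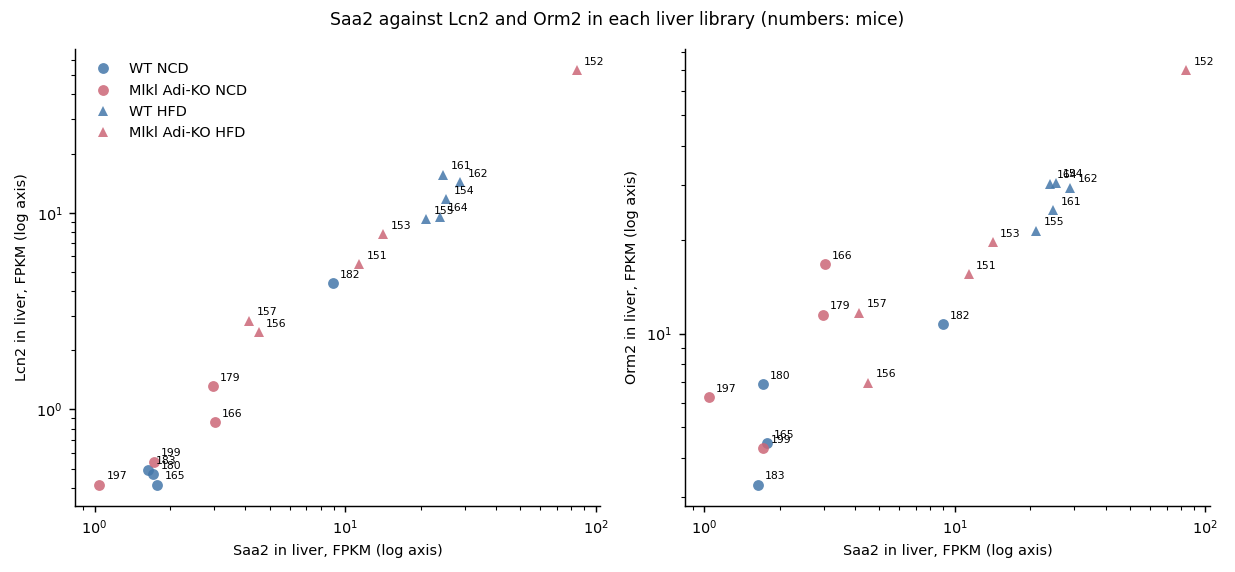
Saa2 against Lcn2 (left) and against Orm2 (right) in each of the 18 liver libraries, FPKM on log axes, with the mouse number beside each point. Lcn2 follows Saa2 along the whole range from 1.04 FPKM (mouse 197) to 83.9 FPKM (mouse 152), and Orm2 is more scattered among NCD livers.

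No member was called between genotypes in the liver on HFD. In this comparison 0.197% of 13215 genes were called. The 2 members with an unadjusted p under 0.05 were Cebpd and Bcl3, and both were called by edgeR and by DESeq2, run on whole reads computed back from FPKM, where edgeR called 0.204% and DESeq2 1.98% of all genes. Cebpd was 7.91, 5.97, 8.003, 8.08 and 5.98 FPKM in WT HFD livers and 3.22, 3.99, 4.67, 4.86 and 4.21 in Mlkl Adi-KO HFD livers. Every Mlkl Adi-KO liver was below every WT liver. The log2 difference was -0.66 ± 0.11 (SE, adjusted p = 0.0562, limma), and the exact two-sided permutation p of 0.00794 is the smallest that 5 against 5 mice allow. Bcl3 was 9.71, 12.9, 11.1, 12.9 and 12.6 FPKM in WT HFD livers and 21.8, 20.1, 17.2, 15.9 and 24.1 in Mlkl Adi-KO HFD livers. Here every Mlkl Adi-KO liver was above every WT liver, with a log2 difference of 0.69 ± 0.12 (SE, adjusted p = 0.0551, limma) and the same exact p of 0.00794. Adjusted p-values were 0.0411 for Cebpd and 0.0470 for Bcl3 with edgeR and 1.26e-05 and 1.44e-05 with DESeq2. DESeq2 gave no adjusted p for Saa2 and Lcn2 in this comparison. Without mouse 156 the adjusted p of Bcl3 was 0.0381.

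These were 2 of 10 members whose HFD groups did not overlap, where 2.62% of the genes tested did not overlap. The other 8 members overlapped. Saa1 was 53.8 ± 12.7 FPKM (SD, n = 5) in WT and 44.7 ± 49.6 (SD, n = 5) in Mlkl Adi-KO livers, but 4 of the 5 Mlkl Adi-KO livers were below every WT liver and mouse 152 was above them all. The same order of mice was seen for Saa2, Orm2 and Lcn2. Without mouse 152 the Mlkl Adi-KO means were 22.7 ± 7.82 for Saa1, 8.55 ± 5.005 for Saa2, 13.4 ± 5.39 for Orm2 and 4.64 ± 2.49 FPKM for Lcn2 (SD, n = 4). The WT means were 53.8, 24.8, 27.2 and 12.1. The log2 differences were then -1.24, -1.59, -1.04 and -1.29, with adjusted p of 0.0698, 0.0698, 0.0927 and 0.0790 (limma), and none was called. Hp was 2626 FPKM in both genotypes, and the 95% interval of its log2 difference ran from -0.27 to 0.26 with mouse 152 included. The summed adipocyte markers, mostly Cidec, a lipid droplet gene, were 66.4 to 99.9 FPKM in WT HFD livers and 8.43 to 79.8 in Mlkl Adi-KO HFD livers, while Adipoq was at 0 to 0.0443 in the latter. Their part in the result was not tested.

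The split of all calls in this comparison, 17 higher and 9 lower, was 12 higher and 16 lower on the TPM scale. On NCD, no member was called between genotypes in liver (0.00758% of 13193 genes were), and Saa3 and Socs3 had an unadjusted p under 0.05 while edgeR and DESeq2 called 0 members. Socs3 was 3.26, 3.03, 3.76 and 3.43 FPKM in WT NCD and 4.502, 4.61, 4.32 and 4.56 in Mlkl Adi-KO NCD livers. The groups did not overlap, as for 2.80% of genes tested, and the exact two-sided permutation p of 0.0286 is the smallest that 4 against 4 mice allow. The log2 difference of 0.33 had an adjusted p of 0.836 (limma). In the test of whether the diet effect differed between genotypes, 0 of 10 members were called (0.0151% of 13248 genes were). The 2 members with an unadjusted p under 0.05 were again Cebpd, with a difference of -0.50 (adjusted p = 0.662, limma), and Bcl3, with 0.61 (adjusted p = 0.670, limma), and neither count tool called a member.

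In visWAT, Saa3, Hp, Bcl3 and Socs3 rose on HFD in WT mice. Saa1 and Saa2 were below 0.5 FPKM on average and were not tested. Of the 8 members tested, 4 were called higher and 0 lower, where 21.9% of 14161 genes were called higher and 15.8% lower (37.8% in either direction). The median difference of the 8 was 0.62, against -0.01 over all genes. These calls depend on the scale between libraries. Dividing each library by its FPKM sum (TPM), which counts the seminal vesicle reads of mouse 183 in the total, moved the median of all genes to 0.42 and the calls from 3108 higher and 2239 lower to 3805 higher and 227 lower, while edgeR gave 2693 higher and 3169 lower. On the TPM scale Saa3 rose by 3.24, Hp by 1.71, Bcl3 by 1.33 and Socs3 by 1.01, and Lcn2 was called as well (1.51), while Orm1 turned from -0.09 to 0.39 with no call. The sign of Orm1 also turned without mouse 182 (0.42, adjusted p = 0.0875).

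Saa3 was 1.26, 0.518, 1.18 and 1.09 FPKM in the visWAT of WT NCD mice 165, 180, 182 and 183, and 15.7, 11.9, 3.92, 11.8 and 5.36 FPKM in WT HFD mice 154, 155, 161, 162 and 164. Every HFD library was above every NCD library, with a wide range among the HFD mice. The mean rose 9.64-fold, a log2 difference of 2.29 ± 0.35 (SE, adjusted p = 0.000777, limma). Saa3 kept its call under all 17 alternatives. Bcl3 also rose, with 2.08, 1.73, 2.22 and 1.69 FPKM on NCD and 3.24, 5.25, 4.03, 3.32 and 3.74 on HFD, a 2.03-fold rise with no overlap. Its log2 difference was 0.74 ± 0.12 (SE, adjusted p = 0.00111, limma). Socs3 was 2.84, 2.61, 3.14 and 2.39 FPKM on NCD and 4.52, 5.03, 4.08, 3.79 and 3.77 on HFD, so in fat the inhibitor was higher in every HFD library (log2 difference 0.48 ± 0.09 SE, adjusted p = 0.00258, limma). In these libraries the summed macrophage markers were 163 to 256 FPKM on NCD and 1519 to 2146 on HFD, and the neutrophil markers 1.20 to 3.25 and 10.02 to 14.8. Their part in the rise of the members was not tested.

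Hp in WT visWAT was 1260, 1122, 274 and 1126 FPKM on NCD and 2041, 1810, 1963, 2076 and 1672 on HFD, so fat held Hp at levels per length near those of liver. The low value was the library labelled WT NCD mouse 182. The log2 difference was 1.23 ± 0.42 (SE, adjusted p = 0.0433, limma). It was 0.71 without mouse 182 (adjusted p = 0.00169). The call was lost without any 1 of mice 154, 155, 161, 162, 164 or 180 (adjusted p 0.0534 to 0.0841), with edgeR (0.0630) and with no filter on low values (0.176). Mouse 182 also held 477 FPKM of Orm1, against 90.2 to 165 in the other 3 WT NCD libraries, and 11.1 FPKM of Orm2, against 0.979 to 1.78. Without mouse 182, Orm2 was called higher on HFD with a log2 difference of 1.08 (adjusted p = 0.00687), where 42.5% of all genes were called. With both mice 182 and 183 left out, 6 members were called, the same 4 with Orm2 (1.13) and Lcn2 (1.14), and Hp was at 0.68. Over all genes 52.1% were called there, against 37.8% with every mouse.

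**Figure D3:**
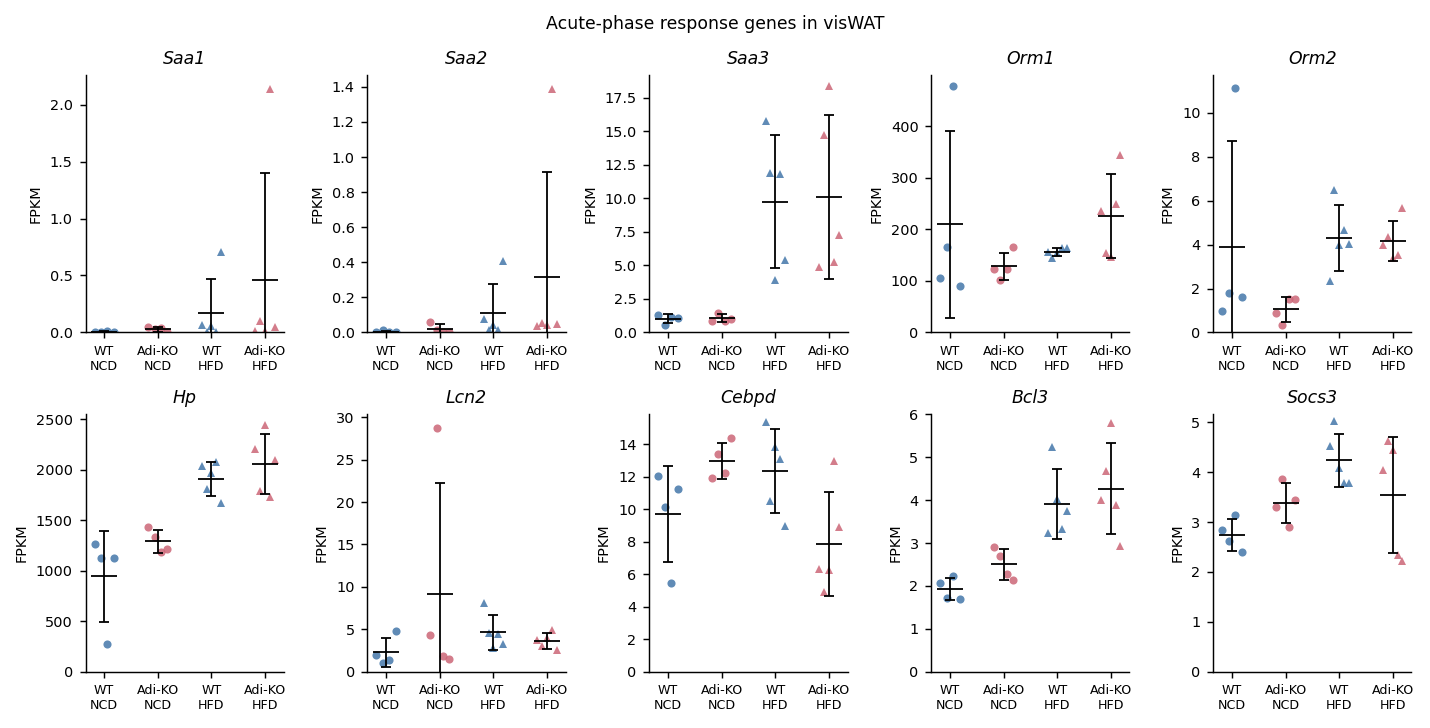
FPKM of the same 10 genes in visWAT, drawn as for liver. Saa3, Hp and Bcl3 are higher in all HFD mice than in all NCD mice of their genotype. Saa1 and Saa2 reach at most 2.13 FPKM, in mouse 156, and mouse 179 is the single high Lcn2 point at 28.8 FPKM.

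In the visWAT of Mlkl Adi-KO mice 5 of 8 members tested rose on HFD (Saa3, Orm1, Orm2, Hp and Bcl3) and Cebpd fell, where 23.3% of 14026 genes were called higher and 20.3% lower (43.7% in either direction). The median difference of the members was 0.62, against 0.01 over all genes. Saa3 was 0.878, 1.47, 0.857 and 1.02 FPKM in NCD mice 166, 179, 197 and 199 and 4.84, 14.8, 18.3, 5.28 and 7.24 FPKM in HFD mice 151, 152, 153, 156 and 157. No value overlapped between diets and the log2 difference, 2.27 ± 0.36 (SE, adjusted p = 0.00133, limma), stood beside 2.29 in WT. The summed macrophage markers were 221 to 389 FPKM on NCD and 592 to 1966 on HFD in these libraries, and the neutrophil markers 1.43 to 3.99 and 7.31 to 14.97. Their part in the changes of the members was not tested. Orm2 was 0.866, 0.336, 1.52 and 1.51 FPKM on NCD and 3.96, 4.35, 3.40, 3.54 and 5.66 on HFD, a 3.95-fold rise (log2 difference 1.36 ± 0.20 SE, adjusted p = 0.00104, limma). Hp rose by 0.66 ± 0.13 (SE, adjusted p = 0.00377), Bcl3 by 0.57 ± 0.15 (adjusted p = 0.0120) and Orm1 by 0.76 ± 0.26 (adjusted p = 0.0391) on the log2 scale (limma). With all 4 visWAT groups in 1 fit the adjusted p was 0.112 for Hp and 0.109 for Orm1, and with no filter on low values 0.183 and 0.0831. The call of Orm1 was also lost without any 1 of mice 151, 156, 157, 166, 179 or 197 (adjusted p 0.0581 to 0.103).

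Cebpd, which in fat also takes part in early adipocyte differentiation, went the other way in Mlkl Adi-KO visWAT. It was 11.9, 13.4, 12.2 and 14.4 FPKM on NCD and 6.33, 4.89, 6.28, 12.95 and 8.89 on HFD. Of the 5 HFD mice, 4 were below every NCD mouse, and mouse 156 lay among the NCD values. The log2 difference was -0.72 ± 0.22 (SE, adjusted p = 0.0265, limma). It was -0.90 without mouse 156 (adjusted p = 0.00191) and lost its call without any 1 of mice 151, 153, 179, 197 or 199 (adjusted p 0.0519 to 0.0679) and with no filter on low values (0.0573). In WT visWAT Cebpd was 12.1, 10.1, 5.45 and 11.3 FPKM on NCD and 15.3, 10.5, 13.9, 13.1 and 8.95 on HFD, with a log2 difference of 0.34 and a 95% interval from -0.16 to 0.85. Mouse 182 was the lowest NCD library, and without it the WT difference was 0.12 (adjusted p = 0.589). The difference between these diet effects was -1.06 ± 0.33 (SE, unadjusted p = 0.00537, adjusted p = 0.326, limma) and -0.84 without mouse 182 (adjusted p = 0.414). In this test 0 of 8 members were called by limma, edgeR or DESeq2, and Cebpd and Socs3 had an unadjusted p under 0.05.

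Lcn2 was not called for diet in fat in the main tests. It was 1.92, 1.04, 1.38 and 4.77 FPKM in WT NCD libraries and 8.13, 4.51, 2.83, 4.48 and 3.31 in WT HFD libraries, with overlapping groups (log2 difference 0.84, adjusted p = 0.0734, limma). Mouse 183, with the seminal vesicle reads, was the highest NCD value, and without it the difference was 1.15 (adjusted p = 0.00730). In Mlkl Adi-KO libraries Lcn2 was 4.33, 28.8, 1.87 and 1.51 FPKM on NCD and 3.76, 2.99, 3.93, 4.91 and 2.53 on HFD. The 2 highest NCD values were mice 179 and 166, whose summed epididymis markers were 13.2 and 4.04 FPKM, while the other visWAT libraries had at most 1.18. The part of epididymal tissue in these values was not tested. Without mouse 179 the diet difference of Lcn2 was 0.43 (adjusted p = 0.222).

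Saa1 and Saa2 were close to absent from visWAT. In 16 of the 18 libraries Saa1 had at most 9 reads and Saa2 at most 6. The exceptions were Mlkl Adi-KO HFD mouse 156, with 156 reads of Saa1 and 103 of Saa2, and WT HFD mouse 164, with 55 and 32. These were also the libraries with the most Alb, at 460 and 53.2 FPKM, beside 0.344 to 50.8 in the other 16. The value of 50.8 was in Mlkl Adi-KO NCD mouse 199, which held 0 reads of Saa1 and of Saa2. The summed hepatocyte markers, which include Cyp2e1, were 1194 FPKM in mouse 156 and 155 in mouse 164. They were 857 to 1976 in WT NCD and 1070 to 1255 in Mlkl Adi-KO NCD visWAT. Almost all of these NCD sums was Cyp2e1, at 840 to 1956.5 FPKM in WT and 1059 to 1184 in Mlkl Adi-KO libraries. Cyp2e1 was 458 FPKM in mouse 156 and 55.2 in mouse 164, so the sums do not compare hepatocyte RNA between these libraries. The part of the hepatocyte markers in the Saa1 and Saa2 reads was not tested. Of all 36 libraries the lowest liver held 148 reads of Saa1 and 46 of Saa2.

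Between genotypes, 0 of 8 members were called in visWAT on HFD by limma, edgeR or DESeq2, where 0.0215% of 13963 genes were called by limma. Cebpd was the 1 member with an unadjusted p under 0.05. It was 12.4 ± 2.58 FPKM in WT and 7.87 ± 3.19 in Mlkl Adi-KO visWAT (SD, n = 5 each), with 4 of 5 Mlkl Adi-KO mice below every WT mouse, a log2 difference of -0.64 (adjusted p = 0.221, limma) and an exact two-sided permutation p of 0.0317. The HFD groups of all 8 members tested overlapped, where 3.01% of genes did not. Saa3 was 9.75 ± 4.95 FPKM in WT and 10.1 ± 6.09 in Mlkl Adi-KO visWAT (SD, n = 5 each), with a 95% interval of the log2 difference from -0.94 to 0.97. In the same libraries the summed macrophage markers were 1519 to 2146 FPKM in WT and 592 to 1966 in Mlkl Adi-KO mice.

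On NCD, 0 of 8 members were called between genotypes in visWAT by limma, edgeR or DESeq2. Bcl3 and Socs3 had an unadjusted p under 0.05, with log2 differences of 0.26 and 0.22 and an adjusted p of 0.916 each. Their groups overlapped, as did those of the other 6, where 2.46% of genes did not overlap. Over all genes the limma calls were 0 of 14063 (0%) here, with 528 at an unadjusted p under 0.05, 0 by edgeR and 8 by DESeq2, and 0 of 14136 (0%) for the difference of diet effects, with 1867 at an unadjusted p under 0.05, 0 by edgeR and 21 by DESeq2.

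Cebpd and Bcl3 can be set side by side in the 2 tissues of the same HFD-fed mice. Cebpd was lower in the fat of mice 151, 152, 153 and 157 than in any WT HFD mouse, and lower in the liver of all 5 Mlkl Adi-KO mice. The fat Cebpd of mouse 156, 12.95 FPKM, lay within the WT range of 8.95 to 15.3. For Bcl3 the genotypes separated in liver, while in fat Mlkl Adi-KO mice held 2.94 to 5.81 FPKM and WT mice 3.24 to 5.25.

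**Figure D4:**
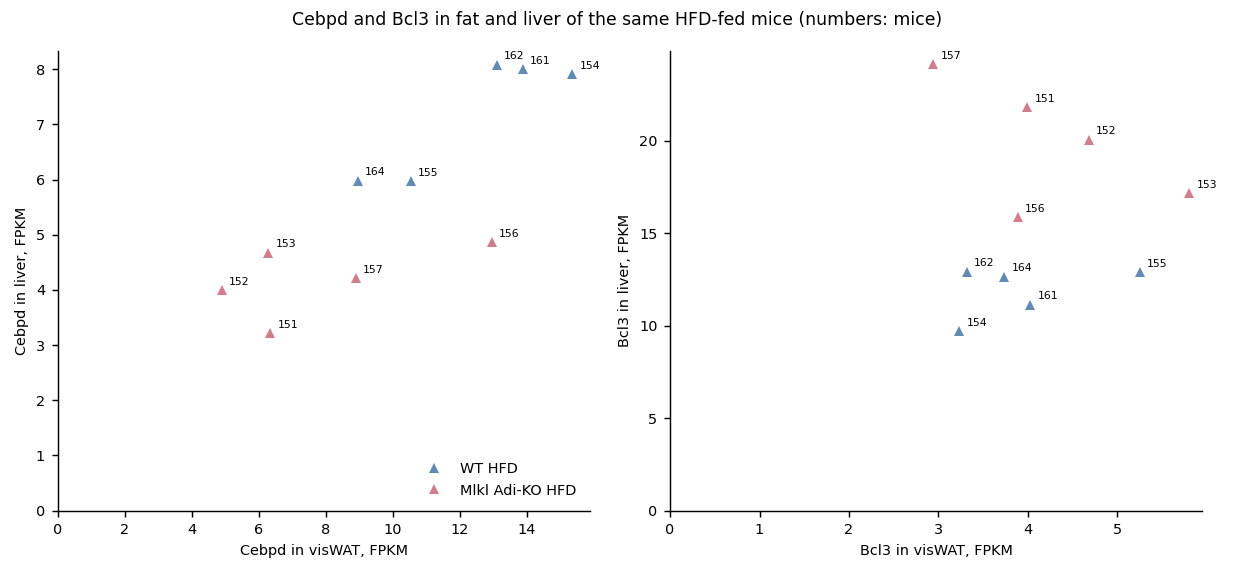
Cebpd (left) and Bcl3 (right) in visWAT (horizontal axis) and liver (vertical axis) of the 10 HFD-fed mice, FPKM, with the mouse number beside each point. On the vertical axes the Mlkl Adi-KO points are all below the WT points for Cebpd and all above them for Bcl3, and on the horizontal axes the genotypes overlap.

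The diet response of WT mice differed between the tissues for 5 of the 8 members that reached a mean of 0.5 FPKM in both, tested as the difference between the visWAT and the liver effect. It was more positive in visWAT for 3 (Saa3, Bcl3 and Socs3) and more negative for 2 (Orm2 and Lcn2), where 21.8% of 14746 genes were more positive and 18.2% more negative (40% in either direction). Those 14746 genes reached a mean of 0.5 FPKM over both tissues together. Unlike the 8 members, they include genes expressed in 1 tissue only. On the TPM scale the split of all genes called moved from 3214 more positive and 2687 more negative to 4017 and 576, and its median from -0.00 to 0.39. The same 5 members were called when the mouse was added as a block, since both tissues came from the same animals. For Socs3 the effects had opposite signs, 0.48 in visWAT and -0.50 in liver, and their difference was 0.99 ± 0.17 (SE, adjusted p = 0.000258, limma). For Saa3 the difference was 1.42 (adjusted p = 0.00777), with 2.29 in visWAT and 0.87 in liver. For Bcl3 it was 0.78 (adjusted p = 0.00674), with 0.74 and -0.04. Lcn2 had a difference of -1.83 (adjusted p = 0.0128), which was lost without mouse 183 (0.0508) and with edgeR (0.0714). That of Orm2 was -1.54 (adjusted p = 0.0463) and was lost under 10 of 17 alternatives (adjusted p 0.0572 to 0.254), which were edgeR, TPM, a pseudocount of 0.1, no filter on low values and leaving out any 1 of mice 154, 161, 162, 164, 180 or 183. It was -0.97 with both mice 182 and 183 left out. Without mouse 182, Cebpd was called as well (-0.67, adjusted p = 0.0162). Saa1 and Saa2 entered this test through liver alone. Their reads are almost absent from fat, which fixes the fat effect near 0 on the log2(FPKM + 1) scale, so their differences are not counted here, and edgeR and DESeq2 gave them the opposite sign with no call.

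**Figure D5:**
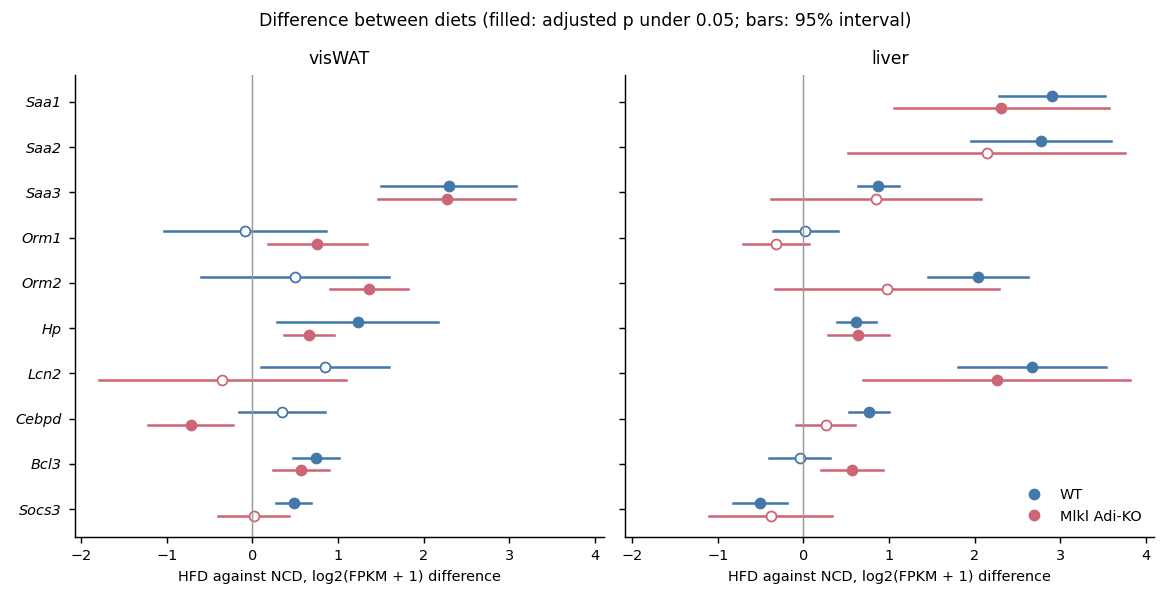
Log2 difference between HFD and NCD for each member in visWAT (left) and liver (right), on the log2(FPKM + 1) scale, in WT and Mlkl Adi-KO mice. Points are limma estimates, filled where the adjusted p was under 0.05, and bars are 95% intervals. Saa1, Saa2, Orm2 and Lcn2 lie far to the right in WT liver, Saa3 in visWAT of both genotypes, and Socs3 on opposite sides of 0 in WT visWAT and WT liver.

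The genes outside the list whose pattern was most like a member were found over the 18 libraries of a tissue by Pearson's r on the log2(FPKM + 1) scale. For Saa3 in visWAT, among 12447 genes, they were Itgb7 (0.948), Casq1 (0.931), Gtse1 (0.929), Col6a2 (0.929) and Hmcn2 (0.928). All 5 had higher means on HFD in both genotypes, as Col6a2, a collagen VI chain, with 24.6 FPKM in WT NCD and 97.4 in WT HFD visWAT. For Saa2 in liver, among 11331 genes, they were Ppt1 (0.955), Samd9l (0.937), Cpeb1 (0.929), Themis (0.920) and Slc13a3 (0.919), below the r of 0.991 that Lcn2 reached. The diet is shared by these libraries and makes up part of each r.

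The other genes of the pathway were taken from lists of 70 genes, whose counts stand beside 25.3% of all genes called on HFD in WT liver, 22.2% in Mlkl Adi-KO liver, 37.8% in WT visWAT and 43.7% in Mlkl Adi-KO visWAT (limma). Of 20 other acute-phase proteins, 19 were tested in WT liver, with 9 higher and 4 lower on HFD and a median log2 difference of 0.48. The largest were Orm3 (3.30), the metal-binding metallothionein Mt1 (2.72), Lrg1 (1.20) and Saa4 (1.12), and Mlkl Adi-KO liver had 10 higher and 4 lower of 19. The 4 lower in WT liver were Apcs (-0.70), Fga (-0.60), Fgb (-0.45) and Fgg (-0.45). The same 4 were lower in Mlkl Adi-KO liver (-0.52, -0.56, -0.42 and -0.42). Orm3 rose from 0.879 ± 0.399 to 17.5 ± 3.85 FPKM in WT liver. In WT visWAT it went from 55.9 ± 45.7 to 2.58 ± 1.35 FPKM, a log2 difference of -3.77 (adjusted p = 0.000236, limma), beside Il1rn, the interleukin-1 receptor antagonist (2.75), and Lbp, the lipopolysaccharide-binding protein (1.83), which rose, and Cp, the copper carrier ceruloplasmin (-1.22), which fell. In all, 6 of 12 rose and 3 fell in WT visWAT, and 6 of 17 rose and 2 fell in Mlkl Adi-KO visWAT.

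Of 8 negative acute-phase proteins, whose liver transcripts fall in inflammation, Alb fell in the liver of both genotypes (-0.61 in WT and -0.50 in Mlkl Adi-KO mice), and Igf1 rose in WT liver (0.52). In WT liver limma called these 2 of 8, and edgeR and DESeq2 also called Rbp4 and Ttr. In Mlkl Adi-KO liver limma called Alb, Ttr, which fell (-0.32), and Serpina6, which rose (0.74), and not Igf1. There edgeR and DESeq2 also called Igf1, and DESeq2 called Rbp4. In visWAT, Rbp4 (-1.37) and Trf (-1.06) fell in WT mice, and Trf (-0.996) and Igf1 (-0.40) in Mlkl Adi-KO mice.

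The inducing cytokines were low. Il6 was at most 0.0345 FPKM on average in any group, and Il1b fell in WT liver from 1.08 ± 0.10 to 0.519 ± 0.261 FPKM (log2 difference -0.47, adjusted p = 0.0240, limma). Of 15 cytokines and receptors, 9 were tested in liver, with 1 higher (Il6st, the gp130 gene, 0.24) and 1 lower in WT mice and 2 higher in Mlkl Adi-KO mice (Il6st, 0.39, and Il1rap, 0.31). In visWAT 8 were tested, with Tnfrsf1b (2.13), Tnf (0.77) and Il6ra (0.72) higher in WT mice and Tnfrsf1b (1.05) and Tnf (0.82) higher and Il1r1 (-0.38) and Osmr (-0.16) lower in Mlkl Adi-KO mice.

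Among 19 genes of STAT3, NF-kappaB and C/EBP signalling, 8 rose and 1 fell in WT visWAT, and 5 rose and 4 fell in Mlkl Adi-KO visWAT, 9 of 19 in each, where 37.8% and 43.7% of all genes were called. Junb (0.93), Nfkb2 (0.77), which encodes the p52 precursor that BCL3 partners, and Rel (0.60) rose in WT visWAT, and Cebpa fell (-0.91). In WT liver 2 of 18 rose and 5 fell, led by Cish (1.82), Junb (-1.78), Zfp36 (-0.87) and Cebpa (0.50), and in Mlkl Adi-KO liver 1 rose and 2 fell. Stat3 in WT liver was 14.3 ± 1.18 FPKM on NCD and 14.7 ± 1.48 on HFD. Of the receptors and partners of the secreted members, Tlr2 (1.53) and Tlr4 (0.72), receptors reported for serum amyloid A, rose in WT visWAT and Mmp9, which binds lipocalin-2, fell (-1.62), and in Mlkl Adi-KO visWAT Tlr2 rose by 0.82 and Mmp9 fell by 2.13. In liver 0 of 3 tested were called by limma in either genotype, with 0 at an unadjusted p under 0.05, and the 2 most abundant on HFD were Scarb1, with 27.0 FPKM in WT NCD and 26.8 in WT HFD liver, and Cd163, with 1.82 and 2.78. Between genotypes, 0 of the list genes tested were called by limma in either tissue on either diet, where 13 of 56 in visWAT and 8 of 57 in liver had an unadjusted p under 0.05 on HFD, and 5 of 50 and 2 of 56 on NCD. The share of all genes at that unadjusted level is not set beside these counts, so no excess is read from them. With edgeR 0 were called in each of these 4 comparisons. DESeq2 called Osmr and Rbp4 in visWAT and Il1b and Junb in liver on HFD, Cish in liver on NCD and 0 in visWAT on NCD. Among the most abundant genes of the lists on HFD, Trf was 452 ± 48.8 FPKM in WT and 538 ± 124 in Mlkl Adi-KO visWAT (SD, n = 5 each), Serpina3n 155 ± 13.2 and 176 ± 23.5 in the same tissue, and Alb 26423 ± 1780 and 30578 ± 2750 in liver.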

How the data were processed

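Polyadenylated RNA was sequenced, trimmed with fastp, mapped to GRCm39 with HISAT2 and counted on genes with featureCounts 1.5.0-p3 by the authors. FPKM were deposited by the authors for every gene, with gene lengths, and read counts for the genes of their own comparisons. Fold changes and p-values in the deposited tables are the authors' own and were not used, nor were 72 further columns of values per sample. Strandedness and annotation release are not given in the sources used here. FPKM carry a scaling between libraries, since the library size behind them, relative to reads on genes, ranged from 0.737 to 0.812 in liver and from 1.01 to 1.40 in visWAT. Multiplied back, all FPKM (100%) came out as whole reads (tolerance 0.01).

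Samples were grouped by tissue, genotype and diet from the labels, which also give the mouse. Main tests were limma 3.58.1 with a trend on log2(FPKM + 1), genes with a mean of at least 0.5 FPKM, and Benjamini-Hochberg adjustment over all genes. Other settings tried were no filter, a minimum of 1 FPKM, a pseudocount of 0.1, TPM, edgeR 4.0.16 (TMM) and DESeq2 1.42.0 on the recovered reads, all 4 groups of a tissue in 1 fit, each mouse left out and, across tissues, the mouse as a block. Leaving out mice 182 and 183 together and, for relations among livers, mouse 152 and the genotype means was added after the data were seen. Exact permutation tests were two-sided on the same scale. The fits were tested on simulated data. The labels name the mouse for both tissues, so samples pair by animal; in the 9 WT mice, which the test across tissues used, correlations of the deviations of paired samples were -0.05 to 0.06. Replicates are separate mice. Named genes were all 10 members, per list the up to 4 called genes with the largest difference, and the 5 genes most alike Saa3 in visWAT and Saa2 in liver; Stat3, Il6, Col6a2 and other genes given as levels were chosen after their values were seen. The acute-phase proteins called lower in liver were also named after their values were seen. The members and lists were chosen with earlier results of these data known.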

Additional observations from a re-analysis of the deposited data

Results flagged for a closer look

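Within the 80 groups of member values, a library far from the rest of its group was found 18 times. The limit used is passed by chance in about 1 in 20 groups only where groups are independent and values normally spread. These groups were FPKM values, some with almost no reads, and the same library recurred in genes that vary together. The 18 can therefore not be compared with that rate, and they serve as a list of libraries that stand apart. In liver, Mlkl Adi-KO HFD mouse 152 was far above its group in Saa1 (133 FPKM), Saa2 (83.9), Saa3 (16.3), Orm2 (69.8), Hp (3422) and Lcn2 (53.2). WT NCD mouse 182 was far above the other WT NCD livers in Saa1 (12.01 FPKM), Saa2 (8.95) and Lcn2 (4.38). In visWAT the library labelled WT NCD mouse 182 was high in Orm2 (11.1 FPKM) and low in Hp (274), and was the only WT NCD library with any Saa1 (0.0149 FPKM, which is 1 read). The 1 read of Saa2 in WT NCD visWAT was in mouse 180 (0.0128 FPKM). Saa1 and Saa2 stood out in the visWAT of WT HFD mouse 164 (0.708 and 0.406 FPKM) and of Mlkl Adi-KO HFD mouse 156 (2.13 and 1.39). Lcn2 stood out in the visWAT of Mlkl Adi-KO NCD mouse 179 (28.8 FPKM).

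The diet effect of WT mice differed between visWAT and liver, by a test of the difference itself (limma), for Saa3 (1.42), Orm2 (-1.54), Lcn2 (-1.83), Bcl3 (0.78) and Socs3 (0.99), as visWAT minus liver on the log2 scale. The same test gave -2.72 for Saa1 and -2.64 for Saa2, but these genes entered it through liver alone and are almost absent from fat, and edgeR (1.92 and 1.55) and DESeq2 (2.36 and 1.98) gave the opposite sign with no call.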

How the results depend on the processing

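Depth limits Saa1 and Saa2 in visWAT, where most libraries hold fewer than 10 reads. Counts of members called stayed within 1.5 times of the reported count except as follows. With no filter on low values, 3 members were called in place of 6 for diet in Mlkl Adi-KO visWAT and 1 in place of 4 in Mlkl Adi-KO liver. Leaving out 1 mouse gave 2 to 5 calls in Mlkl Adi-KO liver, with 2 without mouse 151, 179 or 197. Between genotypes in HFD liver, where 0 were called, edgeR and DESeq2 each called 2 (Cebpd and Bcl3), TPM and all 4 groups in 1 fit called 1 each (Cebpd), and leaving out 1 mouse gave 0 to 1 (Bcl3, without mouse 156). For the difference between tissues edgeR called 3 in place of 7 (Saa1 and Saa2 included, which fat cannot measure), while the fit with the mouse as a replicate block called the same 7 and changed no other call. Saa1 and Saa2 changed sign in that comparison, to 1.92 and 1.55 with edgeR and 2.36 and 1.98 with DESeq2, where the libraries of fat hold almost no reads of them. DESeq2 gave no adjusted p for Saa2 for diet in WT liver, nor for Saa2 and Lcn2 between genotypes in HFD liver. Leaving out 1 mouse gave 3 to 5 calls for diet in WT visWAT, 4 to 6 in Mlkl Adi-KO visWAT, 7 to 8 in WT liver and 5 to 8 for the difference between tissues. Over the 33 single-gene results, 481 of 550 values under other settings kept direction and side of the threshold, 58 lost a call, 7 gained one and 4 changed sign. The cause of the other changes was not tested.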
